A study of Mus musculus with 18 samples.

Results

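The 10 genes *Notum*, *Wif1*, *Dkk2*, *Dkk3*, *Apcdd1*, *Rnf43*, *Znrf3*, *Nkd1*, *Axin2* and *Sp5* encode feedback and secreted inhibitors of Wnt signaling, and several of them serve as readouts of β-catenin activity in tumors. They were chosen by name among the 47729 genes counted by RNA-Seq in mouse colon, and all 10 were found. Earlier results of these data were known when they were chosen, so the counts of calls below describe these genes and are no test of the pathway. Wnt ligands bind Frizzled receptors with LRP co-receptors, and this stops the destruction complex from degrading β-catenin, which then enters the nucleus and switches on genes with TCF/LEF factors. Many of the genes switched on encode proteins that damp the pathway, at the level of the ligand, the receptor, the destruction complex or the promoter, which makes them a feedback loop. In the colon the pathway maintains the stem cells of the crypt base, and its activation is common in colorectal tumors.

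RNA was measured in 3 naive WT mice, in 3 WT mice with colitis-associated cancer (WT CAC) and in 3 *Cldn2*TG CAC mice, which carry the genotype labelled Claudin-2TG. CAC was induced with a single dose of 10 mg/kg of the carcinogen azoxymethane (AOM) followed by 3 cycles of 2.5% dextran sulfate sodium (DSS), which injures the epithelium. The naive mice carry the treatment label Control. The transgene is driven by the villin promoter, which is active in the intestinal epithelium, and all lines were on a C57BL/6 background with WT littermates as controls. The labels name the tissue only as colon and do not say whether tumor or the tissue around it was taken. Ages are not given in the sources used here. No untreated *Cldn2*TG mice were analysed here, so genotype and treatment cannot be told apart where *Cldn2*TG CAC mice are set against naive mice.

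The libraries held 14142711 to 22262546 counts, so that 3 counts corresponded to 0.135 to 0.212 CPM (counts per 1000000 counts of a library) before normalization. Values at or under that floor cannot be told from each other. The CPM given below are normalized and differ slightly, so that 3 counts of *Notum* are 0.130 CPM in naive mouse 3. The 5 genes used to mark colon, *Cdx1*, *Cdx2*, *Hoxa13*, *Hoxb13* and *Hoxd13*, were counted in all 9 mice. *Cldn2* lay at 192, 259 and 245 CPM in the naive mice, 119, 137 and 132 CPM in the WT CAC mice and 208, 218 and 251 CPM in the *Cldn2*TG CAC mice. It was higher in *Cldn2*TG CAC than in WT CAC mice by 0.78 (log2; standard error 0.12, adjusted p = 0.0103), and its difference from the naive mice was -0.03 (95% interval -0.30 to 0.24, adjusted p = 0.897). In counts of *Cldn2*, the *Cldn2*TG CAC mice thus lay above the WT CAC mice and overlapped with the naive mice. These counts do not separate the transgene from the mouse's own gene, so expression of the transgene is not shown by them. Naive mouse 1 had 214 CPM of *Xist*, a transcript of female cells, and the other 8 mice at most 0.203 CPM, so this naive mouse differed in sex, and the counts of the members and of the Wnt lists are also given without it.

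In WT CAC mice 6 of the 10 genes rose (*Notum*, *Wif1*, *Dkk2*, *Apcdd1*, *Nkd1* and *Sp5*) and none fell, beside 8.04% of all genes tested called higher and 6.92% lower. In *Cldn2*TG CAC against WT CAC mice, the same 6 genes and *Dkk3* were lower, beside 7.35% of all genes tested. Here and below a gene is called when its adjusted p, taken from the quasi-likelihood test of edgeR and adjusted by Benjamini and Hochberg's method over all genes tested, is under 0.05. Both comparisons share the WT CAC mice, so that a high value in those mice enters each of them. High values there also decided which genes were tested. *Notum*, *Dkk2* and *Sp5* in both comparisons, and *Apcdd1* in the latter, passed the filter on low counts through the WT CAC mice alone. Of the genes of other lists named below, *Lef1*, *Lgr6* and *Fzd10* did so in both comparisons. *Mmp7* did so in the former, and *Frzb* and *Tnfrsf19* in the latter. In tissue RNA, fewer cells of a type and less RNA per cell cannot be told apart.

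**Figure D1:**
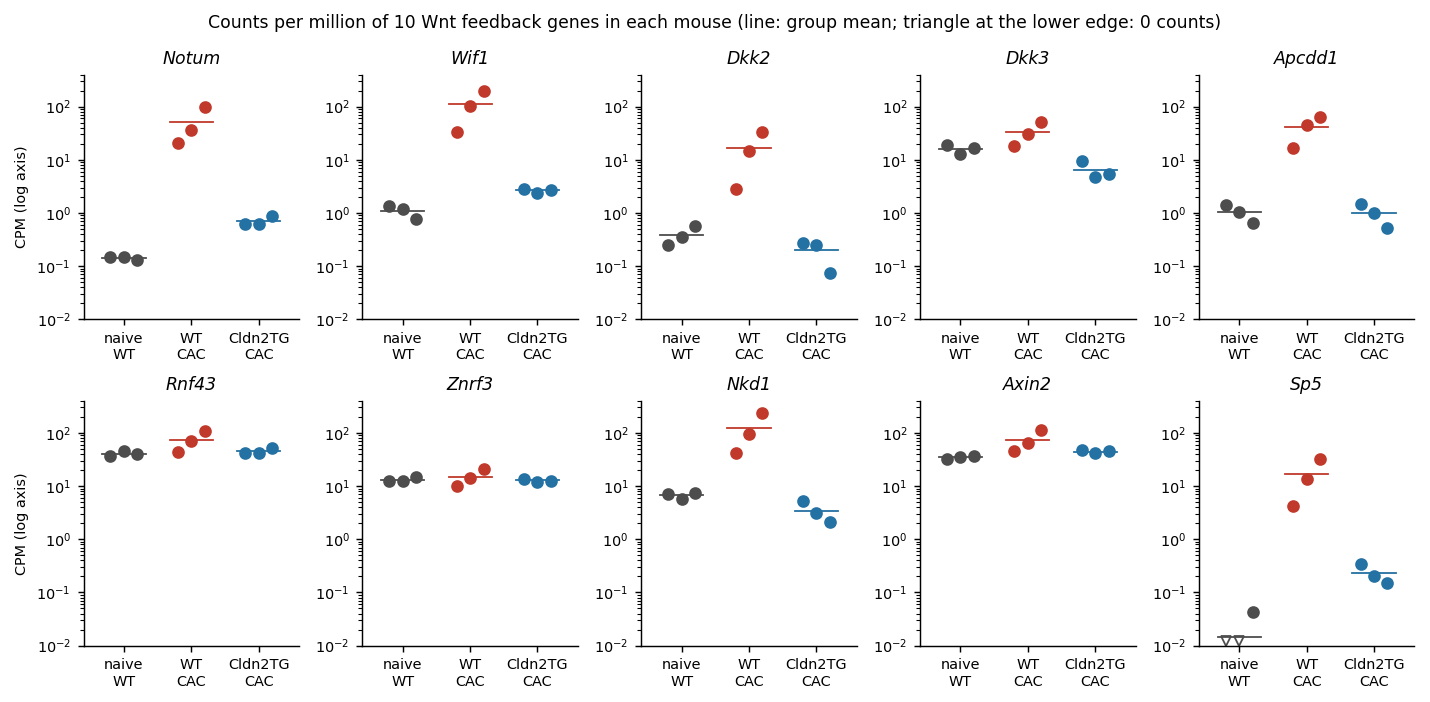
CPM of the 10 genes in each of the 9 mice, on a log axis. Each point is 1 mouse, in the order of the mouse numbers within a group, each line is the group mean, and the triangles at the lower edge are mice with 0 counts. *Notum*, *Wif1*, *Dkk2*, *Apcdd1*, *Nkd1* and *Sp5* stand far above both other groups in all 3 WT CAC mice, whereas *Rnf43* and *Znrf3* overlap between the groups.

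Of the secreted inhibitors, *Notum* had the largest fitted change in WT CAC against naive mice. It encodes an extracellular carboxylesterase that removes the lipid from Wnt ligands. Its level was 0.149, 0.151 and 0.130 CPM in naive mice 1, 2 and 3, 3 counts in each library, then 20.4, 36.3 and 98.3 CPM in WT CAC mice 4, 5 and 6, and 0.620, 0.608 and 0.886 CPM in *Cldn2*TG CAC mice 7, 8 and 9. *Notum* was therefore at the floor in naive colon, was detected above it in every *Cldn2*TG CAC mouse, and was highest in every WT CAC mouse. Over the summed counts, 2690 against 9, the level in WT CAC mice was 329 times that of naive mice (95% counting interval 173 to 721). Its fitted log2 fold change, which at such counts depends on the prior count, was 8.46 (standard error 0.88, adjusted p = 0.00664), and *Notum* kept this call whichever of the 6 mice was left out. From WT CAC to *Cldn2*TG CAC mice it fell by 6.22 (log2; standard error 0.76, adjusted p = 0.00907). This call was lost without mouse 8 (adjusted p = 0.0594) or mouse 9 (0.0517). The gene lies on chromosome 11 at 120653788 to 120661175 on the minus strand of GRCm38, and *Notumos* on the opposite strand overlaps it. *Notumos* had 52, 136 and 185 counts in the WT CAC mice and at most 2 in any other mouse. Whether the counting used strand is not given in the sources used here, and without strand the reads of both genes cannot be told apart.

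*Wif1* encodes a secreted protein that binds Wnt ligands. It was measured at 1.34, 1.21 and 0.781 CPM in the naive mice, 32.8, 104 and 198 CPM in the WT CAC mice and 2.82, 2.38 and 2.73 CPM in the *Cldn2*TG CAC mice. The 3 groups did not overlap, and the lowest WT CAC mouse was 24.4 times the highest naive mouse. *Wif1* rose in WT CAC mice (log2 fold change 6.68, standard error 0.79, adjusted p = 0.00806) and was lower in *Cldn2*TG CAC than in WT CAC mice (-5.42, standard error 0.72, adjusted p = 0.0108). Without naive mouse 2 the first of these calls was lost (adjusted p = 0.0512), and the second was lost without mouse 8 (0.0640) or mouse 9 (0.0622).

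The Dickkopf genes *Dkk2* and *Dkk3* moved unequally. *Dkk2*, whose product binds the LRP co-receptors, was found at 0.249, 0.351 and 0.565 CPM in the naive mice, 2.79, 14.9 and 32.6 CPM in the WT CAC mice and 0.276, 0.253 and 0.0739 CPM in the *Cldn2*TG CAC mice. These are 25 counts over the naive mice, 878 over the WT CAC mice and 10 over the *Cldn2*TG CAC mice. *Dkk2* was thus high in the WT CAC mice alone, with mouse 4 well under mice 5 and 6. It rose by 5.41 (standard error 0.97, adjusted p = 0.0189) and, from WT CAC to *Cldn2*TG CAC mice, the ratio over the summed counts was 73.3 (95% counting interval 39.7 to 153), with an adjusted p of 0.0190. The first call was lost without mouse 1, 2 or 3 (adjusted p = 0.0703, 0.0848 and 0.0626), and the second without mouse 5, 7, 8 or 9 (0.0522, 0.0826, 0.0962 and 0.0882).

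*Dkk3* is the divergent member of the Dickkopf family. It lay at 19.0, 13.0 and 16.4 CPM in the naive mice, 18.2, 30.1 and 50.6 CPM in the WT CAC mice and 9.44, 4.71 and 5.32 CPM in the *Cldn2*TG CAC mice. WT CAC mouse 4 fell within the naive range, and the change of 1.06 (standard error 0.36) did not pass the test (adjusted p = 0.0860), although it did without mouse 4 (1.35, adjusted p = 0.00909). All 3 *Cldn2*TG CAC mice were below every mouse of both other groups. *Dkk3* was lower in them than in WT CAC mice (log2 fold change -2.37, standard error 0.43, adjusted p = 0.0189) and lower than in naive mice (-1.31, standard error 0.26, adjusted p = 0.0165). Without mouse 5, 8 or 9 the former call was lost (adjusted p = 0.0538, 0.0913 and 0.0953), and without mouse 3, 8 or 9 the latter (0.0543, 0.0545 and 0.0640).

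At the cell surface, *Apcdd1* passed the test in both comparisons with WT CAC mice and the ubiquitin ligases *Rnf43* and *Znrf3* in neither. *Apcdd1* encodes a membrane glycoprotein that inhibits Wnt reception. Its level was 1.39, 1.05 and 0.651 CPM in the naive mice, 16.6, 45.1 and 64.6 CPM in the WT CAC mice and 1.45, 1.01 and 0.517 CPM in the *Cldn2*TG CAC mice. The naive and *Cldn2*TG CAC mice overlapped throughout, and the lowest WT CAC mouse was 11.9 times the highest naive mouse. *Apcdd1* rose by 5.38 (standard error 0.59, adjusted p = 0.00689) and was lower in *Cldn2*TG CAC against WT CAC mice (-5.40, standard error 0.62, adjusted p = 0.00777). It lost the first call without mouse 2 (adjusted p = 0.05) and the second without mouse 8 (0.0565) or mouse 9 (0.0506).

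*Rnf43* and *Znrf3* encode E3 ligases that clear Frizzled receptors from the membrane, the step that R-spondins block. *Rnf43* was at 36.6, 45.4 and 40.1 CPM in the naive mice, 44.1, 71.9 and 109 CPM in the WT CAC mice and 42.2, 42.1 and 51.4 CPM in the *Cldn2*TG CAC mice. WT CAC mice 5 and 6 and *Cldn2*TG CAC mouse 9 exceeded the naive range. The changes of 0.90 in WT CAC against naive mice (standard error 0.30, adjusted p = 0.0823) and of -0.75 in *Cldn2*TG CAC against WT CAC mice (standard error 0.29, adjusted p = 0.170) did not pass the test, but both did without mouse 4 (1.17, adjusted p = 0.00474, and -1.01, adjusted p = 0.00492). *1110028F11Rik*, which overlaps *Rnf43*, had 12, 18 and 37 counts in the WT CAC mice and at most 7 in any other mouse, beside 868 to 1625 counts of *Rnf43* in the WT CAC mice. *Znrf3* lay at 12.7, 12.5 and 14.6 CPM, then 10.1, 14.1 and 20.8 CPM, then 13.9, 11.8 and 12.7 CPM in the same order of mice. Its groups overlapped, and the intervals of the log2 fold change were -0.38 to 0.78 for WT CAC against naive mice and -0.82 to 0.33 for *Cldn2*TG CAC against WT CAC mice.

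In the cytosol, *Nkd1* passed the test in both comparisons with WT CAC mice and *Axin2*, which had the higher level in naive colon, in neither. *Nkd1* encodes a protein that binds Dishevelled, which relays the signal from Frizzled. It was counted at 7.22, 5.77 and 7.56 CPM in the naive mice, 41.9, 94.8 and 233 CPM in the WT CAC mice and 5.17, 3.09 and 2.07 CPM in the *Cldn2*TG CAC mice. Every *Cldn2*TG CAC mouse was thus below every naive mouse, and every WT CAC mouse above. *Nkd1* rose by 4.19 in WT CAC mice (standard error 0.65, adjusted p = 0.0149) and was lower in *Cldn2*TG CAC mice (-5.18, standard error 0.75, adjusted p = 0.0131). The first call was lost without mouse 1, 2 or 3 (adjusted p = 0.0525, 0.0698 and 0.0521), and the second without mouse 5, 8 or 9 (0.0520, 0.0738 and 0.0658).

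*Axin2* encodes a scaffold of the destruction complex and is the most widely used target gene of the pathway. It was already at 32.4, 34.8 and 37.1 CPM in the naive mice, reached 44.7, 64.7 and 114 CPM in the WT CAC mice and lay at 47.2, 41.1 and 44.7 CPM in the *Cldn2*TG CAC mice. All WT CAC mice and all *Cldn2*TG CAC mice exceeded the naive mice, but *Cldn2*TG CAC mice overlapped with WT CAC mouse 4. The change of 1.13 in WT CAC against naive mice (standard error 0.32, 95% interval 0.39 to 1.87) missed the threshold (adjusted p = 0.0536), and so did the change of -0.77 in *Cldn2*TG CAC against WT CAC mice (standard error 0.31, adjusted p = 0.182). Without mouse 4, *Axin2* was called in both (1.39, adjusted p = 0.00571, and -1.02, adjusted p = 0.0114).

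The nuclear member is *Sp5*, a zinc finger transcription factor of the Sp family and a direct target of β-catenin that represses other targets. It had 0, 0 and 1 count in the naive mice, 82, 312 and 491 counts in the WT CAC mice and 5, 4 and 2 counts in the *Cldn2*TG CAC mice. In CPM, the WT CAC mice were at 4.17, 13.8 and 32.9 and the *Cldn2*TG CAC mice at 0.344, 0.203 and 0.148, where the last is under the floor of that library. *Sp5* was thus under the floor in naive colon and exceeded 5 counts in WT CAC mice alone. The ratio of WT CAC to naive mice over the summed counts was 975 (95% counting interval 174.5 to 38542), and that of WT CAC to *Cldn2*TG CAC mice was 67.2 (37.4 to 135). The adjusted p-values were 0.00910 and 0.0125. The call against naive mice was lost without mouse 2 (adjusted p = 0.0583) or mouse 3 (0.0553), and the call in *Cldn2*TG CAC against WT CAC mice without mouse 7, 8 or 9 (0.0621, 0.0808 and 0.0730).

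The 250 bases before the start site are shown for *Sp5* and *Dkk2*, which rose together, and for *Axin2*, which did not pass the edgeR test. They are the members whose start is the same base in RefSeq and in the count table. They are RefSeq sequences of GRCm38.p6 on the plus strand, at chr2:70474673-70474922 for *Sp5*, chr3:132085042-132085291 for *Dkk2* and chr11:108920099-108920348 for *Axin2*, and capitals mark a TCF/LEF core.
Sp5: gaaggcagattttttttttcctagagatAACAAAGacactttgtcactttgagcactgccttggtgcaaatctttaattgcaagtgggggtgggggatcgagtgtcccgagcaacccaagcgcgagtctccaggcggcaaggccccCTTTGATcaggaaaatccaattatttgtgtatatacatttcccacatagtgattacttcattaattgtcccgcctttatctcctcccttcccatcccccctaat
Dkk2: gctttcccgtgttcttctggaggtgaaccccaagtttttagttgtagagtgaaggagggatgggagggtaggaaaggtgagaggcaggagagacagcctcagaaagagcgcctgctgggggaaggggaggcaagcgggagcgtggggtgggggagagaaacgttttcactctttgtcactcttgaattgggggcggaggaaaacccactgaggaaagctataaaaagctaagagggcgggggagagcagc
Axin2: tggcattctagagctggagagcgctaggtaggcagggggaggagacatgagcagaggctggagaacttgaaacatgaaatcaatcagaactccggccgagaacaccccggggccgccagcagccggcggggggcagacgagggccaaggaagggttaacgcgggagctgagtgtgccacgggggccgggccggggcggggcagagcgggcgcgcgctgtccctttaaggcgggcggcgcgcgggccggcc

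The core searched was CTTTG followed by AA, AT, TA or TT, on both strands. *Sp5* held 2, with their first bases at -222 (the opposite strand) and -104 from the start, and *Dkk2* and *Axin2* held none. Of 7 windows for 6 members (*Nkd1*, *Axin2*, *Wif1*, *Rnf43*, *Sp5* and *Dkk2*), *Sp5* held the only matches, and of all 32851 windows of this length 14.8% held at least 1. A match here is a run of letters and not a measured binding site.

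**Figure D2:**
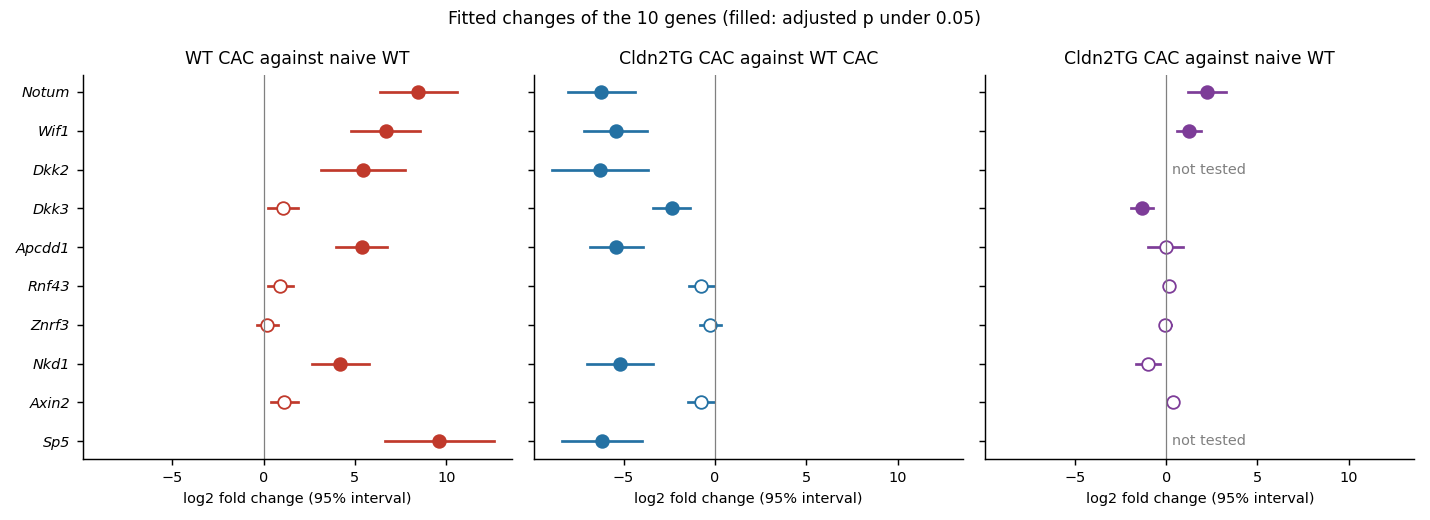
Fitted log2 fold change of each gene with its 95% interval in the 3 comparisons; filled points have an adjusted p under 0.05 and *Dkk2* and *Sp5* had too few counts to be tested in the comparison on the right. The filled points run from 4.19 (*Nkd1*) to 9.61 (*Sp5*) on the left and from -6.30 (*Dkk2*) to -2.37 (*Dkk3*) in the middle.

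WT CAC against naive mice asks what AOM and DSS do in WT colon. All 10 members were tested, 6 were called higher and 0 lower (unadjusted p under 0.05 in 9), beside 8.04% of the 15437 genes tested that were called higher, 6.92% called lower and 15.0% called in either direction. In 7 members, the 6 and *Axin2*, every WT CAC mouse was above every naive mouse, which was so for 17.7% of the genes tested. The median log2 fold change of the members was 4.78, and that of all genes 0.02; the median is the same with *Notum* and *Sp5* at the lower ends of their counting intervals. The exact permutation test of single genes cannot go below 0.1 with 3 mice against 3 and gave 0.1 for these 7. The count fell to 1 (*Notum*) without mouse 2 and to 3 without mouse 3, and was 4 without naive mouse 1 (*Notum*, *Wif1*, *Apcdd1* and *Sp5*). DESeq2 called 9 members, adding *Axin2* (adjusted p = 0.002), *Rnf43* (0.0131) and *Dkk3* (0.0117), and the edgeR fit of all 9 mice called 8, adding *Axin2* (0.0205) and *Rnf43* (0.0394). When genes with low counts were kept in the test, 4 were called, without *Nkd1* and *Dkk2*.

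*Cldn2*TG CAC against WT CAC mice compares the genotypes under the same treatment. All 10 members were tested and 7 were called lower (unadjusted p under 0.05 in 9), beside 7.35% of 14888 genes called lower, 2.19% called higher and 9.54% called in either direction. In these 7 members every *Cldn2*TG CAC mouse was below every WT CAC mouse, as in 14.3% of the genes tested. Their median log2 fold change over all 10 was -5.29, against 0.01 over all genes. The fall was steepest for *Dkk2*, *Notum* and *Sp5*, all of which reached 12 counts at most in any *Cldn2*TG CAC mouse. The count was 4 without mouse 5 and 0 without mouse 8 or mouse 9 (edgeR, unadjusted p under 0.05 in 7 members each time), and 3 (*Notum*, *Wif1* and *Apcdd1*) when genes with low counts were kept in the test. Over the 6 fits without 1 mouse, the log2 fold change ran from -6.59 to -5.34 for *Notum*, from -6.79 to -5.36 for *Dkk2* and from -1.02 to -0.31 for *Axin2*.

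*Cldn2*TG CAC against naive mice shows how far the treated transgenic colon lay from untreated WT colon. *Notum* (log2 fold change 2.24, standard error 0.48, adjusted p = 0.0170) and *Wif1* (1.26, standard error 0.29, adjusted p = 0.0236) were higher and *Dkk3* was lower, 3 of the 8 members tested, beside 10.0% of 15013 genes called in either direction (3.92% higher and 6.07% lower). *Notum* is read here from 33 counts against 9. It passed the filter on low counts through the *Cldn2*TG CAC mice alone, and could be tested in 5 of the 7 alternatives that kept all mice. *Dkk2* and *Sp5* had too few counts to be tested. *Apcdd1* differed by -0.03 (95% interval -0.98 to 0.91), *Rnf43* by 0.16 (-0.10 to 0.42) and *Znrf3* by -0.05 (-0.36 to 0.26), none of which passed the test. *Nkd1*, lower in all 3 *Cldn2*TG CAC mice (-0.99, standard error 0.30), and *Axin2*, higher in all 3 (0.36, standard error 0.10), missed the threshold (adjusted p = 0.0627 and 0.0550). The share of all genes in which *Cldn2*TG CAC and naive mice do not overlap was not counted. Such separation, here and in the paragraphs on single members, is therefore no result about the members. Without mouse 7 *Nkd1* passed (-1.39, adjusted p = 0.0157). With all mice kept, *Nkd1* was called in 5 of 7 alternatives (adjusted p = 0.00113 to 0.452 over the 7) and *Axin2* in 1, by DESeq2 (0.0477). Without naive mouse 1 the count of members called was again 3, *Notum*, *Wif1* and *Dkk3*. The 3 calls were each lost without mouse 3, mouse 8 or mouse 9 (unadjusted p under 0.05 in 5 members each time), with adjusted p-values of 0.0764, 0.0507 and 0.0639 for *Notum* and of 0.0969, 0.0605 and 0.0644 for *Wif1*, which also lost its call without mouse 7 (0.0521). With all 9 mice in 1 fit, where the spread of the WT CAC mice enters, none of the 8 was called (unadjusted p under 0.05 in 1).

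The WT CAC mice differed among themselves in every member, and in the same order. Mouse 4 was lowest and mouse 6 highest in 10 of 10 members, and this order was found in 20.0% of the 15437 genes tested. Mouse 6 was 11.7 times mouse 4 in *Dkk2*, 7.89 times in *Sp5*, 6.02 times in *Wif1*, 5.55 times in *Nkd1*, 4.81 times in *Notum* and 3.89 times in *Apcdd1*. In *Dkk3*, *Axin2*, *Rnf43* and *Znrf3* the same ratio was 2.78, 2.55, 2.47 and 2.05. The members that were far from the naive level thus also spanned the wider range among WT CAC mice. Even mouse 4 was 136 times the highest naive mouse in *Notum*, 24.4 times in *Wif1*, 5.55 times in *Nkd1* and 4.95 times in *Dkk2*, but 1.20 times in *Axin2* and 0.693 times in *Znrf3*.

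Levels of different genes were compared per kilobase of exon. In naive colon *Axin2* (6.31 ± 0.43 CPM per kilobase, SD, n = 3) and *Rnf43* (6.21 ± 0.68) stood first and did not differ beyond their spread, followed by *Dkk3* (4.80 ± 0.90), *Znrf3* (1.68 ± 0.15) and *Nkd1* (1.54 ± 0.21). *Wif1* (0.457 ± 0.12) and *Apcdd1* (0.369 ± 0.13) came next, with *Wif1* the higher in each naive mouse. *Dkk2* (0.105 ± 0.043), *Notum* (0.0596 ± 0.0047) and *Sp5* (0.00689 ± 0.012) followed. In WT CAC colon the order changed in part. *Wif1* (45.9 ± 34.1) was first in each of the 3 mice and *Nkd1* (27.6 ± 22.1) second in each. *Notum* (21.5 ± 17.1) and *Apcdd1* (15.0 ± 8.6) had higher means than *Axin2* (13.5 ± 6.5), *Rnf43* (11.4 ± 4.9) and *Dkk3* (9.82 ± 4.9). Within each WT CAC mouse, *Notum* was above *Axin2*, and *Rnf43* and *Dkk3* were below it. *Apcdd1* was above *Axin2* in mice 5 and 6 and below it in mouse 4. *Sp5* (8.07 ± 7.0), *Dkk2* (4.52 ± 4.0) and *Znrf3* (1.90 ± 0.68) closed it. In *Cldn2*TG CAC colon *Axin2* (8.05 ± 0.56) was again first and *Rnf43* (6.90 ± 0.81) second in every mouse, then came *Dkk3* (1.93 ± 0.77) and *Znrf3* (1.62 ± 0.13), within their spread of each other, and *Wif1* (1.09 ± 0.096) and *Nkd1* (0.772 ± 0.35). *Apcdd1* (0.355 ± 0.17), *Notum* (0.293 ± 0.065), *Sp5* (0.110 ± 0.048) and *Dkk2* (0.0542 ± 0.030) stood last, the latter pair at or near the floor. As a share of the *Axin2* level per kilobase of the same mouse, *Notum* was at 0.802% to 1.05% in naive mice, 105% to 197% in WT CAC mice and 3.00% to 4.54% in *Cldn2*TG CAC mice.

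Of the other 5 lists of the pathway, the cytosolic regulators had no call in the comparisons with WT CAC mice, and the other 4 lists had calls in each, beside the 15.0% and 9.54% of all genes called in either direction. Of 18 genes of the destruction complex (without the member *Axin2*) and other cytosolic regulators, all were tested. By edgeR none was called in WT CAC against naive mice or in *Cldn2*TG CAC against WT CAC mice (unadjusted p under 0.05 in 1 gene each). Nor was any of these genes called by DESeq2 or under the other alternatives run. *Ctnnb1*, which encodes β-catenin, had the highest level of them at 911 ± 39.8 CPM in naive, 981 ± 152 CPM in WT CAC and 897 ± 50.3 CPM in *Cldn2*TG CAC mice (SD, n = 3). The medians of this list were -0.06 and -0.04 in the 2 comparisons. Of the TCF/LEF factors and their cofactors, 2 of 13 were called higher in WT CAC mice and the same 2 of 12 lower in *Cldn2*TG CAC against WT CAC mice. *Lef1* rose from 0.282 ± 0.11 to 8.90 ± 6.1 CPM (log2 fold change 4.96, standard error 0.63, adjusted p = 0.00776) and was at 0.536 ± 0.24 CPM in *Cldn2*TG CAC mice (-4.10, standard error 0.63, adjusted p = 0.0103). *Tcf7* rose from 5.97 ± 0.56 to 20.4 ± 8.7 CPM (1.80, standard error 0.30, adjusted p = 0.0138) and was at 7.62 ± 0.55 CPM in *Cldn2*TG CAC mice (-1.44, standard error 0.29, adjusted p = 0.0196). *Tcf7l2*, which had the highest mean CPM of the list over the 9 mice but not in the naive mice, was at 87.6 ± 4.8 CPM in naive and 98.8 ± 18.5 CPM in WT CAC mice and did not pass the test (0.20, standard error 0.15, adjusted p = 0.375).

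Of 19 receptors and co-receptors, 2 were called higher and 4 lower in WT CAC mice. *Lgr6*, an R-spondin receptor, went from 7 counts over the naive mice to 381 over the WT CAC mice and to 2 over the *Cldn2*TG CAC mice, ratios of 60.0 (95% counting interval 28.8 to 150) and 159 (43.7 to 1318). *Fzd10*, a Frizzled receptor, went from 9 counts to 75 and back to 9, ratios of 9.18 (4.58 to 20.9) and 6.96 (3.48 to 15.8). Both passed the test in both comparisons (adjusted p = 0.0114 and 0.0110 for *Lgr6*, 0.0117 and 0.0196 for *Fzd10*). They passed the filter on low counts through the WT CAC mice alone, the group in which they were high. *Fzd8* fell from 15.0 ± 1.0 to 6.07 ± 1.0 CPM in WT CAC mice (-1.27, standard error 0.18, adjusted p = 0.00834), and the other receptors that fell, named after their values were seen, were *Fzd4*, *Lrp6* and *Ror1*. In *Cldn2*TG CAC against WT CAC mice 3 of 17 receptors were called lower (*Lgr6*, *Fzd10* and *Ptk7*) and 1 higher (*Fzd7*, named after its value was seen). *Ptk7*, a co-receptor, was at 35.6 ± 12.5 CPM in WT CAC and 17.2 ± 0.54 CPM in *Cldn2*TG CAC mice (-1.07, standard error 0.23, adjusted p = 0.0267). *Lgr4*, the receptor with the highest mean CPM over the 9 mice, was at 307 ± 24.9, 279 ± 54.1 and 345 ± 7.3 CPM in the 3 groups and passed in neither comparison.

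Of 16 other secreted or surface antagonists 10 were tested in WT CAC against naive mice. *Igfbp4*, whose product binds insulin-like growth factors and can inhibit Wnt signaling, was called higher, from 27.2 ± 2.5 to 148 ± 96.6 CPM (2.47, standard error 0.51, adjusted p = 0.0265). *Sfrp5*, a secreted Frizzled-related protein, was called lower, from 1.98 ± 0.14 to 0.802 ± 0.039 CPM (-1.27, standard error 0.28, adjusted p = 0.0255). In *Cldn2*TG CAC against WT CAC mice 3 of 9 were called lower, *Igfbp4* (19.0 ± 1.0 CPM in *Cldn2*TG CAC mice, -2.98, standard error 0.52, adjusted p = 0.0201), *Sfrp1* (-1.66, standard error 0.32, adjusted p = 0.0181) and *Frzb* (-1.52, standard error 0.40, adjusted p = 0.0478). The medians of the tested antagonists were 0.20 and -1.26.

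Of 18 other β-catenin targets of intestinal epithelium and tumors, 17 were tested, of which 6 were called higher and 0 lower in WT CAC mice, and 5 lower and 1 higher (*Ephb3*, named after its value was seen) in *Cldn2*TG CAC against WT CAC mice. The medians were 0.62 and -0.75. *Mmp7*, a matrix metalloprotease, rose from 0.309 ± 0.15 to 135 ± 168 CPM (8.73, standard error 1.49, adjusted p = 0.0183), with mouse 4 at 16.9 CPM and mouse 6 at 327 CPM, and its lower level in *Cldn2*TG CAC mice (2.66 ± 3.0 CPM) missed the threshold (adjusted p = 0.0592). *Prox1*, a homeobox factor, rose from 2.18 ± 0.49 to 45.1 ± 27.9 CPM (4.39, standard error 0.55, adjusted p = 0.00834) and was at 2.33 ± 0.16 CPM in *Cldn2*TG CAC mice (-4.29, standard error 0.54, adjusted p = 0.00875). *Tnfrsf19*, a receptor of the TNF family, rose from 2.05 ± 0.94 to 14.0 ± 12.2 CPM (2.78, standard error 0.74, adjusted p = 0.0487) and was at 0.980 ± 0.57 CPM in *Cldn2*TG CAC mice (-3.83, standard error 0.82, adjusted p = 0.0322). *Jun*, which had the highest mean CPM of the list over the 9 mice but not in the WT CAC or the *Cldn2*TG CAC mice, passed in neither comparison. *Lef1* and *Tcf7* stand in this list too and were called in the same directions. The remaining genes tested are named after their values were seen. *Ascl2* was called higher in WT CAC mice (1.28, standard error 0.32, adjusted p = 0.038) but not lower in *Cldn2*TG CAC against WT CAC mice (-0.30, adjusted p = 0.685). *Cd44* was called only in the latter comparison (-1.44, standard error 0.23, adjusted p = 0.0103). *Lgr5*, *Sox9*, *Myc*, *Ccnd1*, *Ephb2*, *Sox4*, *Fosl1* and *Bambi* passed in neither. Over the 6 fits without 1 mouse, the calls in WT CAC against naive mice and in *Cldn2*TG CAC against WT CAC mice ranged from 0 to 3 and 0 to 4 for the antagonists, 0 to 3 and 0 to 4 for the TCF/LEF list, 0 to 8 and 0 to 6 for the receptors, and 0 to 12 and 0 to 11 for these targets, each highest without mouse 4. All 4 lists had 0 calls without mouse 2 in WT CAC against naive mice and 0 without mouse 8 or mouse 9 in *Cldn2*TG CAC against WT CAC mice, with 2 to 10 of their genes at an unadjusted p under 0.05 in each of these edgeR fits. Without naive mouse 1, the calls in WT CAC against naive mice were 0 antagonists (edgeR, unadjusted p under 0.05 in 3), 1 TCF/LEF gene, 4 receptors and 2 targets.

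**Figure D3:**
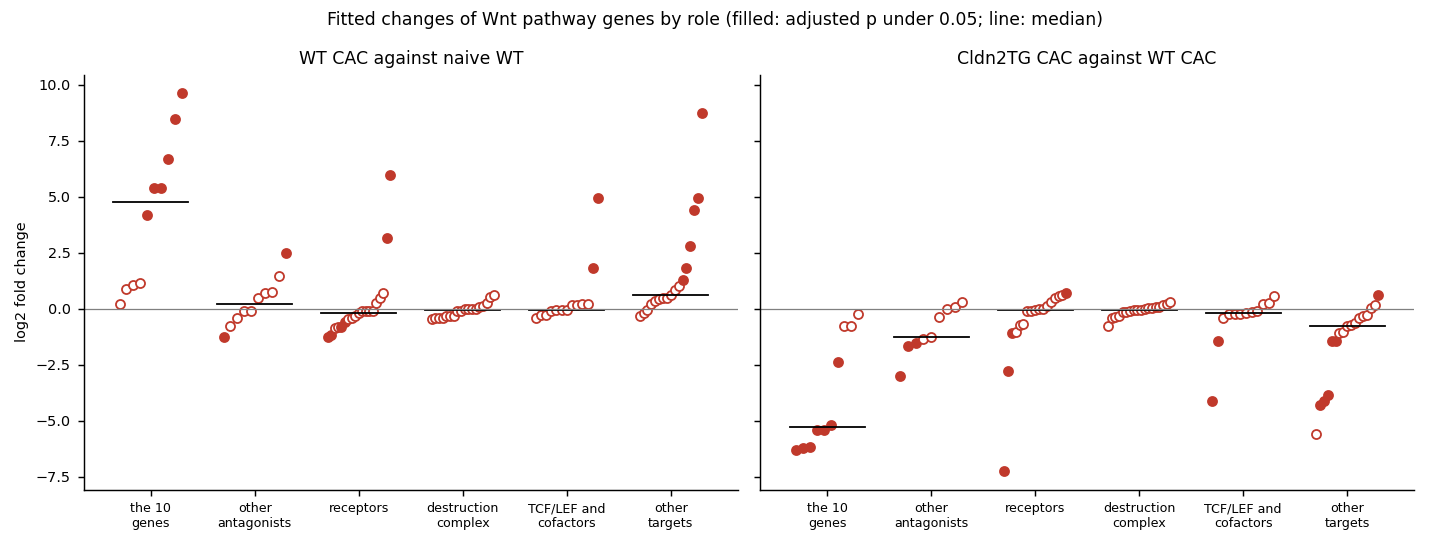
Fitted log2 fold changes of the 10 genes and of 5 other lists of the Wnt pathway, 1 point for each gene tested; filled points have an adjusted p under 0.05 and lines are medians. The medians of the 10 genes are 4.78 and -5.29. The list labelled destruction complex also holds other cytosolic regulators and leaves out *Axin2*. It has no filled point, and its medians are -0.06 and -0.04.

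In *Cldn2*TG CAC against naive mice, 4 of 9 other antagonists were called lower and 0 higher, 3 of 16 receptors lower and 0 higher, 1 of 18 cytosolic regulators lower, and 1 of 12 TCF/LEF factors and cofactors lower and 1 higher (*Tcf7l2*, 0.42, standard error 0.11, adjusted p = 0.0325). Of all genes tested in this comparison, 6.07% were called lower and 3.92% higher, so a single call in a list is no result about that list. Of the other targets 2 of 16 were higher and 1 lower (*Jun*, -0.93, standard error 0.16, adjusted p = 0.00881). The higher ones, named after their values were seen, were *Ascl2* (0.98, standard error 0.20, adjusted p = 0.0154) and *Sox9* (0.61, standard error 0.12, adjusted p = 0.0109). Among the antagonists, *Sfrp1* (-1.76, standard error 0.26, adjusted p = 0.00402), *Frzb* (-2.28, standard error 0.40, adjusted p = 0.00800), *Sfrp5* (-1.21, standard error 0.29, adjusted p = 0.0260) and *Igfbp4* (-0.51, standard error 0.12, adjusted p = 0.0265) were lower, as *Dkk3* was. *Frzb* passed the filter on low counts here through the naive mice alone. The count of 2 for the TCF/LEF list was 1 without mouse 9 and 0 without mouse 1, 2, 3, 7 or 8, and 0 with all 9 mice in 1 fit (edgeR, unadjusted p under 0.05 in 2 to 4 genes, and 1 gene called by DESeq2). Over the fits without 1 mouse the calls were 2 to 3 for the antagonists, 0 to 2 for the cytosolic regulators, 2 to 4 for the receptors and 2 to 4 for the targets. Without naive mouse 1 they were 2, 1, 2 and 3 in this order.

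Markers of other cells moved beside the members, and their part in the results was not tested. The summed level of 7 epithelial markers was 14606 to 16091 CPM in naive, 14619 to 17697 CPM in WT CAC and 15818 to 19320 CPM in *Cldn2*TG CAC mice, and scaling the libraries to it left the 6 and 7 calls of the members in place. The sum of 6 leukocyte markers was 8.13 to 21.4 CPM in naive, 34.4 to 64.6 CPM in WT CAC and 8.50 to 13.8 CPM in *Cldn2*TG CAC mice. Of these markers, 3 of 6 were called higher in WT CAC mice, beside 8.04% of all genes tested. In *Cldn2*TG CAC against WT CAC mice 3 of 5 were called lower, beside 7.35%. The sum of 6 fibroblast markers was 292 to 422, 446 to 1119 and 181 to 260 CPM in the same order of groups, but 0 of 6 were called higher in WT CAC mice. The leukocyte and the fibroblast sum were both highest in mouse 5. Smooth muscle markers (5 genes) were at 1751 to 3297, 915 to 2504 and 819 to 1276 CPM, endothelial markers (4 genes) at 29.3 to 37.3, 31.6 to 39.6 and 18.0 to 21.3 CPM, and enteric neuron and glia markers (5 genes) at 20.7 to 33.9, 7.56 to 16.8 and 7.70 to 11.8 CPM. In *Cldn2*TG CAC against naive mice, 5 of 5 neuron and glia, 3 of 4 endothelial, 2 of 5 smooth muscle and 1 of 6 fibroblast markers were called lower, beside 6.07% of all genes tested. Against WT CAC mice, 0 of 3 neuron and glia markers tested, 2 of 4 endothelial, 0 of 5 smooth muscle and 2 of 6 fibroblast markers were called lower, beside 7.35% of all genes tested. *Dkk3* was lower in both of these comparisons. No marker of any list was at 0 in all mice.

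Within the WT CAC group, the sum of the 5 surface colonocyte markers ran against the members, at 4886, 2843 and 2177 CPM in mice 4, 5 and 6. The sum of the 5 colon identity genes did so as well, at 1613, 1297 and 1226 CPM. Of these genes, *Krt20* (998, 1264 and 1022 CPM), *Cdx2* (78.2, 84.5 and 52.3 CPM) and *Hoxb13* (702, 486 and 538 CPM) did not follow this order. The sum of the 5 cycling markers ran with the members at 216, 255 and 357 CPM, but was lower than the 424 to 526 CPM of the naive mice. Among them *Cdk1* (33.9, 32.4 and 52.0 CPM) did not follow the order. The cycling sum lay at 274 to 435 CPM in *Cldn2*TG CAC mice, which had 4443 to 7046 CPM of the colonocyte markers, 1687 to 1971 CPM of the colon identity genes and 8747 to 13867 CPM of the 5 goblet cell markers. The goblet cell markers were at 10393 to 11609 CPM in naive and 7182 to 9228 CPM in WT CAC mice, and the naive mice had 3846 to 5627 CPM of the colonocyte markers.

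**Figure D4:**
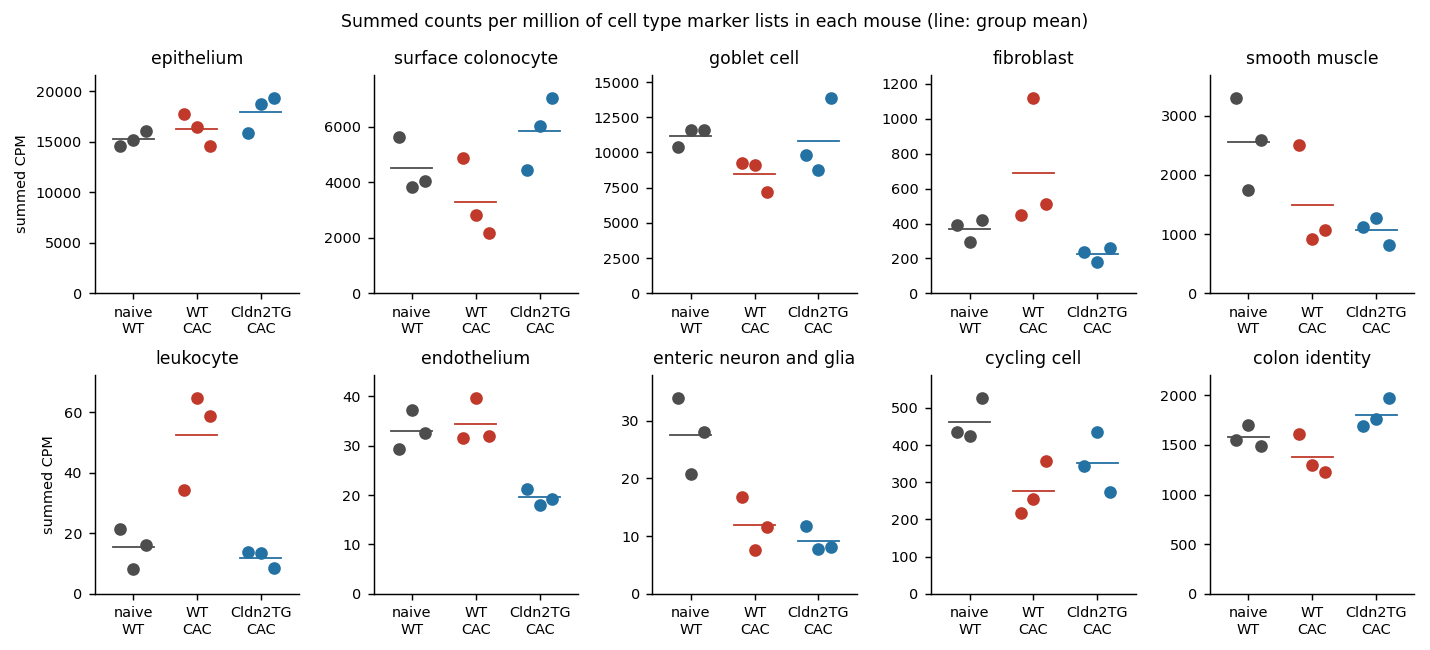
Summed CPM of 10 marker lists in each mouse, with the group mean as a line and each axis starting at 0. The leukocyte sum is higher in all 3 WT CAC mice (34.4 to 64.6 CPM) than in any other mouse (at most 21.4 CPM), whereas the epithelial sum overlaps between the groups.

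The genes whose pattern over the 9 mice was most like that of *Notum* were *Pnliprp2*, *Mt4*, *Wif1*, *R3hdml* and *Muc6*, by the mean absolute difference of z-scored log2 CPM (0.036, 0.049, 0.074, 0.082 and 0.083 among 13891 genes). *Wif1* among them is itself a member, and *Sp5* was 11th and *Apcdd1* 40th, whereas *Axin2* was 535th and *Znrf3* 3164th. *Mt4* was at a mean of 0.0311 CPM in naive, 73.5 CPM in WT CAC and 0.395 CPM in *Cldn2*TG CAC mice. For *Axin2* the list was *Dcun1d3*, *Ier5l*, *Itln1*, *Aspa* and *Kcnu1* (0.088, 0.156, 0.162, 0.164 and 0.169), with *Rnf43* 20th and *Notum* 297th. *Dcun1d3* followed the *Axin2* pattern on a smaller scale, at means of 10.6, 13.6 and 11.7 CPM. These measures describe 9 mice in 3 groups and are no test.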

How the data were processed

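RNA-Seq of colon from 9 mice in 3 groups of 3 was used. Per the paper's methods the reads were mapped with TopHat2, whereas the submitters' processing notes name HISAT2 and GRCm38, and reads were counted on genes with featureCounts. Versions and strand are not given in the sources used here. The authors deposited whole-number counts, not normalized, in 18 columns, 2 lanes for each of 9 libraries. The lanes of each library were added up after their counts were compared (chi-square per degree of freedom 0.991 to 1.05, over genes with at least 10 counts). Nothing says that the mice of a group came from separate cages or runs, so p-values measure the spread between these mice.

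Symbols came from the GENCODE M21 annotation and covered 47224 of 47729 genes, and 7 of the 10 members had the same coordinates there as in the table. Each comparison was fitted with edgeR 4.0.16 (R 4.3.3) on its 6 mice by a robust quasi-likelihood fit after TMM normalization and its default filter on low counts (filterByExpr, 10 counts and 15 in total). A run on simulated data changed only genes well above the floor, by a fixed fold. It does not cover genes near the floor in a group or the largest changes given above. The CPM of a mouse use TMM factors from 1 normalization of all 9 mice. Single members had a two-sided exact permutation test on log2 CPM (pseudocount 0.5). Counting intervals (95%, exact) cover counting error only. The members and lists were chosen with earlier results of these data known. 1 gene of the colon identity list is not reported here. The text names all members, up to 3 called genes of each other list with the largest change in each comparison with WT CAC, the most abundant gene of each list, and the 5 genes most like *Notum* and *Axin2* (mean CPM of at least 1). Alternatives were DESeq2 1.42.0, library size only, scaling to epithelial markers, no filter, all 9 mice in 1 fit, each lane alone and leaving out each mouse.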

Additional observations from a re-analysis of the deposited data

How the results depend on the processing

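Counts of calls moved with single mice. Leaving out each mouse in turn gave 1 to 9 members called in WT CAC against naive mice (6 with all mice). *Cldn2*TG CAC against WT CAC mice gave 0 to 9 (7 with all mice), and *Cldn2*TG CAC against naive mice 0 to 3 (3 with all mice). The cause was not tested, except that these fits hold fewer mice. Without a filter on low counts 3 members were called in *Cldn2*TG CAC against WT CAC mice, and for *Cldn2*TG CAC against naive mice 5. In the latter, DESeq2 also called 5, lane 1 alone called 1 and the fit of all 9 mice called 0, and the cause was not tested. Of the 362 alternative values of the members' log2 fold changes, 286 kept their direction and their side of the threshold, 50 lost the call, 18 gained it and 8 changed sign, none of these 8 called. Without 1 mouse the log2 fold change of *Znrf3* ranged from -0.11 to 0.41 in WT CAC against naive mice, from -0.46 to 0.07 in *Cldn2*TG CAC against WT CAC mice and from -0.12 to 0.02 in *Cldn2*TG CAC against naive mice. In the last comparison that of *Apcdd1* ranged from -0.38 to 0.25 and was 0.01 with lane 2 alone, and that of *Rnf43* was -0.08 with scaling on epithelial markers. The cause of these changes of sign was not tested. Over all genes, *Cldn2*TG CAC against WT CAC mice had 1421 calls by edgeR, 2183 by DESeq2 and 2136 with all 9 mice in 1 fit, and *Cldn2*TG CAC against naive mice had 1501, with 445 in the fit of all 9 mice and 2567 without a filter. Without 1 mouse the calls over all genes ranged from 135 to 4080 (2310 with all mice), from 58 to 2894 and from 525 to 1383. Without naive mouse 1 they were 631 in WT CAC and 958 in *Cldn2*TG CAC against naive mice. No paired analysis was possible because no mouse number occurs in more than 1 group. Depth limits *Notum* and *Sp5* in naive mice and *Dkk2* and *Sp5* in *Cldn2*TG CAC mice, where a few counts stand behind each value.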
